A study of Mus musculus with 4 samples.

Results

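The epidermal growth factor (EGF) family was followed through sorted cells of the mouse thoracic aorta as 10 genes, 3 ErbB receptors (Egfr, Erbb2 and Erbb4) and 7 ligands (Hbegf, Ereg, Btc, Tgfa, Areg, Nrg1 and Nrg2), out of 32948 genes in the table. They were chosen by family membership with their counts in these libraries already known, and all 10 were found by Ensembl identifier. Their levels are therefore given as a description, with no test of their own. The cells came from the ascending aorta and the arch of animals that all carried both Wnt1-Cre and the Rosa26-mTmG reporter, and no age is stated in the sources used here. GFP cells descend from cells in which Wnt1-Cre, a driver active in the neural crest, switched the reporter from red to green. tdTomato cells are the other cells of the same suspension, with the reporter unswitched. The suspensions were 1 female sample and a pool of 2 male samples, each sorted into both colours, which made 4 libraries and 2 pairs with no replicate of any sex and colour. The sort used fluorescence alone, and sex cannot be told apart from the suspension.

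ErbB receptors are tyrosine kinases that sit in the cell membrane and signal in pairs once a ligand binds. EGFR takes up TGF-alpha (Tgfa) and amphiregulin (Areg), and shares HB-EGF (Hbegf), epiregulin (Ereg) and betacellulin (Btc) with ErbB4. ErbB4 also binds the neuregulins (Nrg1 and Nrg2), and ErbB2 has no known ligand of its own and acts as a partner for the others. The ligands are made as membrane proteins and most are cut free by metalloproteases. In the vessel wall HB-EGF is known as a growth factor for smooth muscle cells. In the developing heart and outflow tract, neuregulin acts through ErbB2 and ErbB4.

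Hbegf was the family's leading transcript in all 4 libraries, and none of the other 9 members reached 10 counts in every library. Egfr and Erbb2 were lower in GFP than in tdTomato within both suspensions and had 0 counts in male GFP. Btc was also lower in GFP in both pairs. Ereg went opposite ways, with GFP 22.1-fold above tdTomato in the female suspension and at 0 counts in the male one. Erbb4 was read in both male libraries and in neither female library. Tgfa, Areg and Nrg2 were each read in a single library, and Nrg1 gave 2 counts in all.

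**Figure D1:**
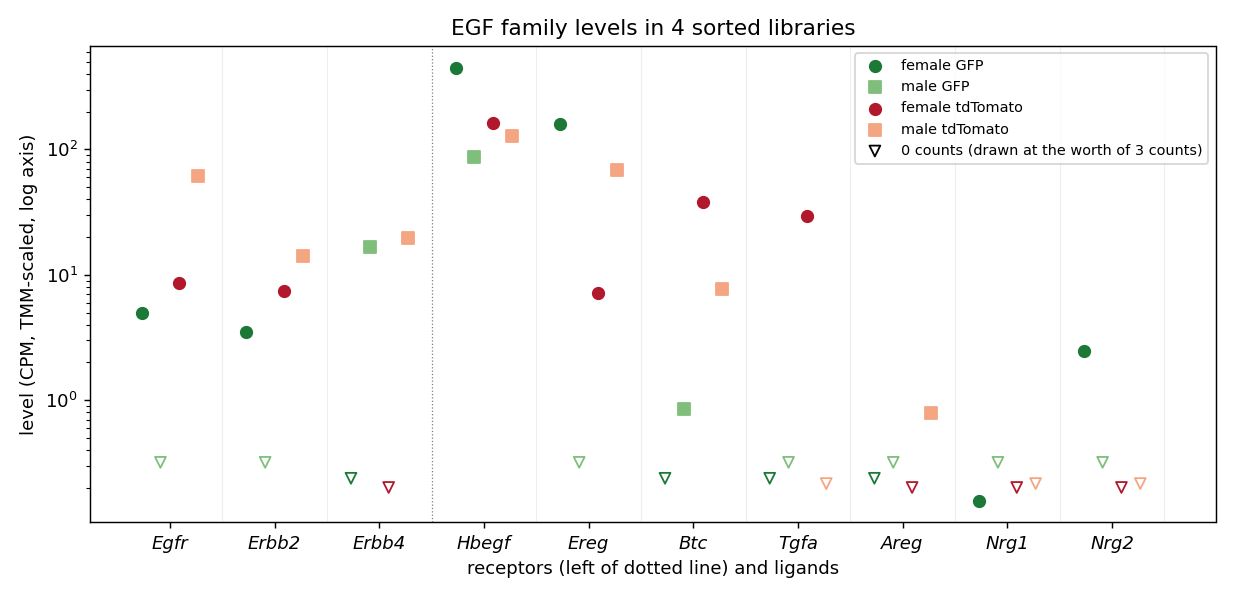
Levels of the 10 EGF family genes in CPM (counts scaled to library total and composition, log axis) in female and male GFP (green) and female and male tdTomato (red) libraries, 1 point per library; open triangles are libraries with 0 counts, drawn at the worth of 3 counts. Hbegf is the only gene with a filled point in all 4 libraries above 10 counts, and male GFP has 7 open triangles.

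The promoters of Egfr, Erbb2 and Btc are shown because these 3 genes stood lower in GFP cells of each suspension, and that of Areg because it is the neighbour of Ereg and Btc on chromosome 5 and stayed at or near 0. The RefSeq table of build GRCm38.p6 places Epgn, Ereg, Areg and Btc in this order with 0 protein-coding genes between them. That table gave a promoter for 6 of the 10 members. Each sequence is the 250 bases before the gene's start, 5′ to 3′ on its own strand, with motif matches in capitals. Positions are those of GRCm38.p6: chr11:16751953-16752202 (plus strand) for Egfr, chr11:98412234-98412483 (plus) for Erbb2, chr5:91402995-91403244 (minus) for Btc and chr5:91139349-91139598 (plus) for Areg.
Egfr: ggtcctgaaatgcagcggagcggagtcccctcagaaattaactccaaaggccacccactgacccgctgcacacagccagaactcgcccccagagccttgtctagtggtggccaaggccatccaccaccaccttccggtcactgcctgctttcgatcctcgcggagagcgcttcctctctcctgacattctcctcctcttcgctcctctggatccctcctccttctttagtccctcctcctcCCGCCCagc
Erbb2: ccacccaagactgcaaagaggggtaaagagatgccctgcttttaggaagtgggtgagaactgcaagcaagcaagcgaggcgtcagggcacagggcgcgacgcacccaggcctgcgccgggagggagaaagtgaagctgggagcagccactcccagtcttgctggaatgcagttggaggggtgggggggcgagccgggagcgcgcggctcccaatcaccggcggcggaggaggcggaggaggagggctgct
Btc: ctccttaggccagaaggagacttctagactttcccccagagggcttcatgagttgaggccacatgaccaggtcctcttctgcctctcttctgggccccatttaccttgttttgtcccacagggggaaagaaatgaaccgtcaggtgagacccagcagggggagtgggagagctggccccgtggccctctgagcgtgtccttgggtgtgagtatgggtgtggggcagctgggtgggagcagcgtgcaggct
Areg: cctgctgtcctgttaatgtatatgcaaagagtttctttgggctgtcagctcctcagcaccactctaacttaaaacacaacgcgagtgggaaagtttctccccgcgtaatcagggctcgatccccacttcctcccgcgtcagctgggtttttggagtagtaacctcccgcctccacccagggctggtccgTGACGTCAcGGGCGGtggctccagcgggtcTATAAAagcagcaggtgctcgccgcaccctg
The motifs searched on both strands were the GC box GGGCGG, the TATA box TATAAA, the cyclic AMP response element TGACGTCA, the AP-1 site TGANTCA and the CArG box. None of the matches found overlapped another. They stand in 32.7%, 12.4%, 1.55%, 6.75% and 1.47% of the 32851 promoters of the table, in the same order. The Areg window held the cyclic AMP element, a GC box and a TATA box, beginning 61, 52 and 31 bases before the start. The Egfr window held a GC box that began 9 bases before the start. None of these 5 motifs was found in the Erbb2 and Btc windows. G and C made up 60.8% of the Egfr window, 66.0% of the Erbb2 window, 59.6% of the Btc window and 57.2% of the Areg window, against a median of 52.4% over all promoters.

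Depth came to 13678806 estimated counts for female GFP, 10094326 for male GFP, 13911281 for female tdTomato and 12837282 for male tdTomato. A count of 0 allows a level of up to 0.238, 0.319, 0.201 and 0.216 CPM in the same order, the worth of 3 counts. The GFP libraries missed more genes: of the 15055 genes that passed a filter on low counts, female GFP lacked 12.8% and male GFP 23.4%, whereas female tdTomato lacked 1.5% and male tdTomato 2.02%. The submitters label the cells as vascular smooth muscle, and all 7 smooth muscle markers, Acta2, Myl9 and Tagln foremost, were read in every library. Markers of other cells were read as well. The 7 endothelial markers, led by Ptprb, summed to 15.8 (female) and 12.7 CPM (male) in GFP, whereas tdTomato had 377.8 (female) and 229.4 CPM (male). The 6 fibroblast markers, led by Dcn, summed to 3015 (female) and 302 CPM (male) in GFP, whereas tdTomato had 2746 (female) and 3143 CPM (male). They did not move as one. Pdgfra and Col1a1 were at least 2-fold lower in GFP of each suspension, beside 22.9% of all tested genes. Pdgfra had 0 counts in female GFP against 1026 in female tdTomato. Dcn and Lum had log2 ratios of 0.15 and 0.68 in the female pair and of -3.87 and -7.06 in the male pair. The 3 melanocyte markers in the table, led by Dct, summed to 211.6 (female) and 133.4 CPM (male) in GFP, whereas tdTomato had 73.2 (female) and 58.6 CPM (male). Pmel, also of this list, had at most 3 counts in any library. The 4 epithelial and mesothelial markers, led by Krt18, summed to 48.2 (female) and 12.3 CPM (male) in GFP, whereas tdTomato had 4.55 (female) and 11.5 CPM (male). Krt18 alone made 45.7 CPM of the female GFP sum, and Epcam and Cdh1 had at most 1 count in any library. The 2 markers of mast cells and granulocytes reached at most 0.936 CPM in sum. With RNA from many cells in a library, fewer cells of a type and less RNA per cell cannot be told apart.

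Of the 10 members, 6 passed the filter (Egfr, Erbb2, Erbb4, Hbegf, Ereg and Btc) and 4 did not (Tgfa, Areg, Nrg1 and Nrg2). With suspension as a block, the quasi-likelihood test of edgeR (Benjamini-Hochberg adjusted) called 0 of 15055 genes (0%), and the smallest adjusted p was 0.577. Unadjusted p was under 0.05 for 1295 genes. DESeq2 called 1157 genes, or 7.69%, on the same pairs, and limma-voom called 0. DESeq2's calls held 1 of the 6 members, Btc, and since the members were chosen with these libraries known, nothing is read from it. Counts of members at least 2-fold apart are given beside the share of all tested genes that were, on the log2 scale with a prior count of 2. In both pairs alike, 2 of 6 members (Erbb2 and Btc) were lower in GFP by 2-fold or more, beside 22.9% of all tested genes, and 0 of 6 were higher by as much, beside 5.17%. In the female pair alone, GFP was lower by that much for 2 of 6 (Erbb2 and Btc) beside 37.8% of all genes, and higher for 2 of 6 (Hbegf and Ereg) beside 22.0%. In the male pair alone, 4 of 6 were lower (Egfr, Erbb2, Ereg and Btc) beside 50% of all genes, and 0 of 6 were higher beside 21.5%. The median log2 ratio of the 6 was -0.39 (female pair) and -4.73 (male pair), where all tested genes had -0.27 and -1.0. The male median rests in part on the prior count, since Egfr, Erbb2 and Ereg had 0 counts in male GFP.

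**Figure D2:**
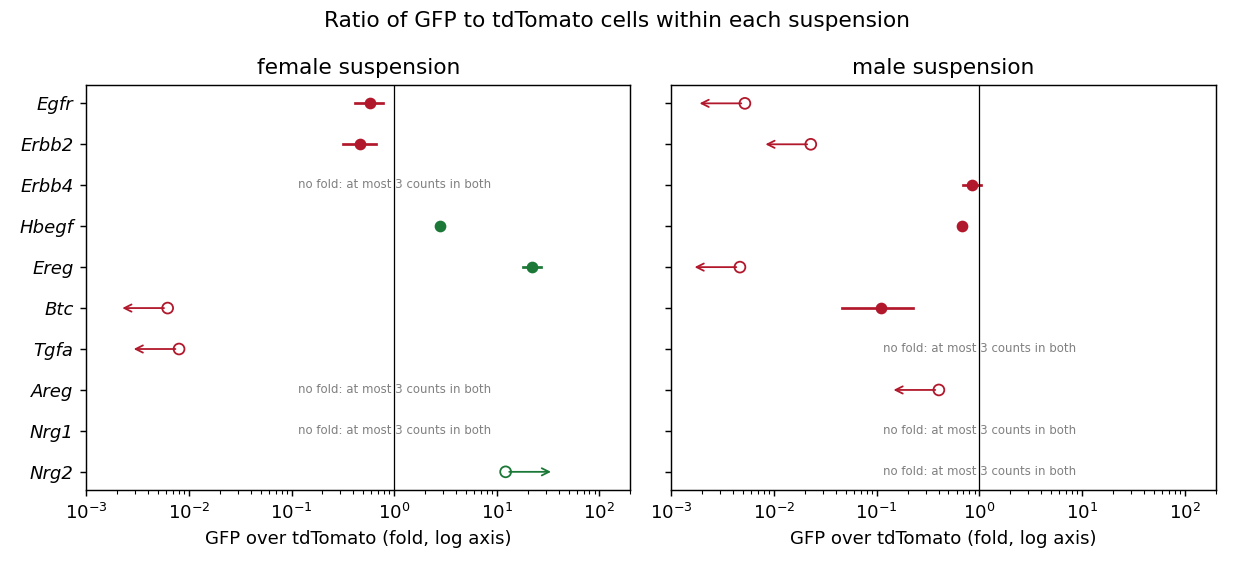
Fold of GFP over tdTomato (log axis) for each member within the female suspension (left) and the male suspension (right); bars are exact 95% binomial intervals, and open circles with arrows are bounds taken against 3 counts in a library at 0. Ereg stands at 22.1 in the female panel and beyond its bound on the other side in the male panel.

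Egfr (ENSMUSG00000020122, chromosome 11), the receptor for most ligands of the family, had 63 (female) and 0 counts (male) in GFP, whereas tdTomato had 129 (female) and 855 counts (male). These are levels of 4.99 and 0 CPM for the GFP libraries and of 8.63 and 61.5 CPM for the tdTomato libraries. Male tdTomato stood far above the other libraries. Within the female pair the GFP level was 1.73-fold lower (95% counting interval 1.27 to 2.38), below the 2-fold line, and within the male pair at least 192.5-fold lower. Between the sexes, female tdTomato was 7.13-fold lower than male tdTomato (5.92 to 8.64), while female GFP was at least 15.6-fold higher than male GFP. The order of the sexes was thus turned between the colours.

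Erbb2 (ENSMUSG00000062312, chromosome 11), the partner receptor, followed the same order of libraries at lower counts. It had 44 and 0 counts in GFP, or 3.49 and 0 CPM, against 112 and 195 counts in tdTomato, or 7.49 and 14 CPM. Within the female pair it was 2.15-fold lower in GFP (1.5 to 3.12), and within the male pair at least 43.9-fold lower. The female value lies just past the 2-fold line and Egfr's just short of it. With DESeq2's size factors Erbb2 also falls short, at a log2 ratio of -0.95. Its exons overlap those of Mien1 on the other strand by 9 bases, and the kit does not mark strand. The endothelial markers were lower in GFP too, all 7 by 2-fold or more in each suspension, beside 22.9% of all tested genes. The fibroblast sum was lower in GFP in the male pair. Between the tdTomato libraries the endothelial sum was higher in the female one (377.8 against 229.4 CPM), where Egfr and Erbb2 were lower. The part of endothelial cells and fibroblasts in the receptor values was not tested.

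Erbb4 (ENSMUSG00000062209, chromosome 1), the receptor of neuregulins and of the ligands it shares with EGFR, was split by suspension and not by colour. It had 0 and 157 counts in female and male GFP, or 0 and 16.7 CPM, against 0 and 271 counts in female and male tdTomato, or 0 and 19.5 CPM. Within the male suspension the GFP level was 1.17-fold lower than the tdTomato level, with an interval of 0.954 to 1.43 that holds 1. The female level was at least 70.3-fold lower than the male one in GFP and at least 97.1-fold lower in tdTomato. Erbb4 was the most abundant receptor per length in male GFP, at 1.35 CPM per kb of exon, and the least abundant of the 3 in male tdTomato, at 1.58 CPM per kb against 5.43 for Egfr and 2.69 for Erbb2.

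Hbegf (ENSMUSG00000024486, chromosome 18), the heparin-binding ligand, measured 449.6 (female) and 86.6 CPM (male) in GFP, whereas tdTomato had 161 (female) and 128 CPM (male). The counts behind these were 5677 and 813 in GFP against 2408 and 1777 in tdTomato. Female GFP was the highest library and male GFP the lowest, so the GFP values lay on both sides of the tdTomato ones. Within the female pair GFP was 2.79-fold higher (2.66 to 2.93), and within the male pair 1.48-fold lower (1.36 to 1.61). The mean log2 ratio was 0.46 ± 1.44 (SD, n = 2 pairs). With female GFP left out, male GFP less the mean of the tdTomato libraries was -0.73, an unpaired value of the opposite sign. Between the sexes, female GFP was 5.20-fold higher than male GFP (4.83 to 5.6) and female tdTomato 1.26-fold higher than male tdTomato (1.19 to 1.34). Per length Hbegf led the family in each library, at 93.0 and 17.9 CPM per kb in GFP and 33.3 and 26.4 CPM per kb in tdTomato.

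Ereg (ENSMUSG00000029377, chromosome 5), a ligand of EGFR and ErbB4 made at low levels in most resting tissues, had the widest swing. It gave 2018 and 0 counts in female and male GFP, or 159.8 and 0 CPM, against 108 and 956 counts in female and male tdTomato, or 7.22 and 68.7 CPM. Female GFP was the highest library and male GFP the lowest, as for Hbegf. Within the female pair GFP was 22.1-fold higher (18.2 to 27.1), and within the male pair at least 215.2-fold lower. A 2-fold difference in these opposite directions was seen for 1 of the 6 members, Ereg, beside 11.5% of all tested genes. Female GFP was at least 500.5-fold higher than male GFP, and female tdTomato was 9.52-fold lower than male tdTomato (7.79 to 11.7). Exons of Ereg overlap those of the antisense gene Gm19610 by 141 bases, and reads of both strands cannot be told apart. The 6 macrophage markers in the table, a cell type known to make Ereg and Hbegf, summed to 30.7 (female) and 0.426 CPM (male) in GFP, whereas tdTomato had 24.9 (female) and 136.2 CPM (male). Of these markers, 3 were at 0 in each GFP library. Cd14 alone made 24.1 CPM of the female GFP sum. The leukocyte gene Ptprc made 65.4 CPM of the male tdTomato sum and had 0 counts in female tdTomato. The part of macrophages in the Ereg and Hbegf values was not tested.

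Btc (ENSMUSG00000082361, chromosome 5), the betacellulin gene, had 0 and 8 counts in female and male GFP, or 0 and 0.852 CPM, against 572 and 108 counts in female and male tdTomato, or 38.3 and 7.77 CPM. GFP was at least 161.0-fold lower in the female pair and 9.12-fold lower in the male pair (4.47 to 21.7). In tdTomato the female level was 4.93-fold higher than the male level (4.00 to 6.11), opposite to Egfr, Erbb2 and Ereg. The endothelial markers named above were likewise lower in GFP, and their part in the Btc value was not tested. Per length it was the second ligand of female tdTomato, at 8.46 CPM per kb, and came after Ereg in male tdTomato, at 1.72 against 16.7 CPM per kb.

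The other 4 ligands were read in a single library each. Tgfa (ENSMUSG00000029999, chromosome 6), the gene of TGF-alpha, had 0 counts in both GFP libraries, against 443 counts, or 29.6 CPM, in female tdTomato and 0 in male tdTomato. GFP was at least 124.7-fold lower than tdTomato in the female pair. The T cell markers Lck and Cd2 were likewise read in female tdTomato only, at 18.8 and 3.01 CPM, while the leukocyte gene Ptprc had 0 counts there. The T cell receptor complex genes did not follow: Cd3e had 1 count there, and Cd3d had 7 (female) and 23 counts (male) in GFP, whereas tdTomato had 5 (female) and 20 counts (male). The 4 T cell markers in the table summed to 0.554 (female) and 2.45 CPM (male) in GFP, whereas tdTomato had 22.2 (female) and 1.44 CPM (male). Their part in the Tgfa value was not tested. Nrg2 (ENSMUSG00000060275, chromosome 18), a neuregulin, had 31 counts in female GFP, or 2.46 CPM, and 0 in male GFP and both tdTomato libraries. Cdh19, a Schwann cell cadherin, was also read in female GFP only, at 130 CPM, and Sox10, a transcription factor gene of these cells, was at 0 there. The 6 Schwann cell markers summed to 257.4 (female) and 109.3 CPM (male) in GFP, whereas tdTomato had 8.23 (female) and 11.7 CPM (male). The part of such cells in the Nrg2 value was not tested. Areg (ENSMUSG00000029378, chromosome 5) had 0 counts in both GFP libraries, against 0 in female tdTomato and 11 counts, or 0.791 CPM, in male tdTomato. Nrg1 (ENSMUSG00000062991, chromosome 8), the main neuregulin of heart and nerve, had 2 counts in female GFP and 0 elsewhere.

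Hbegf supplied most ligand reads in each library, and what remained differed from library to library. Its share of the counts of the 7 ligands in female GFP was 73.5% (exact 95% interval 72.5 to 74.4) and in male GFP 99.0% (98.1 to 99.6). It was 68.2% (66.6 to 69.7) in female tdTomato and 62.3% (60.5 to 64.1) in male tdTomato. Ereg made up 26.1% (25.1 to 27.1) and 0% (up to 0.448) in female and male GFP, against 3.06% (2.52 to 3.68) and 33.5% (31.8 to 35.3) in tdTomato. Btc and Tgfa together held the rest in female tdTomato, at 16.2% (15.0 to 17.5) and 12.5% (11.5 to 13.7). The 3 receptors summed to 8.47 (female) and 16.7 CPM (male) in GFP, whereas tdTomato had 16.1 (female) and 95 CPM (male). The 7 ligands summed to 612.1 (female) and 87.4 CPM (male) in GFP, whereas tdTomato had 236.2 (female) and 205.1 CPM (male). These intervals cover counting error only, since reads amplified by PCR are not independent molecules.

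**Figure D3:**
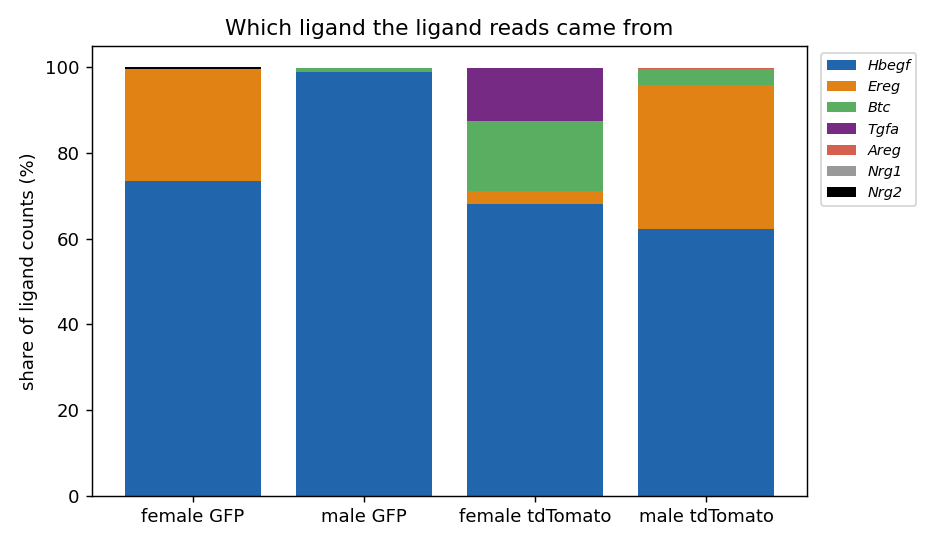
Share of the ligand counts (percent) that each of the 7 ligands held in female GFP, male GFP, female tdTomato and male tdTomato, 1 bar per library. Hbegf fills 62.3% to 99.0% of each bar, and Ereg the next part in female GFP (26.1%) and male tdTomato (33.5%).

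Female GFP was at least 2-fold higher than male GFP for 4 of 6 members (Egfr, Erbb2, Hbegf and Ereg), beside 40.3% of all tested genes, and at least 2-fold lower for 2 (Erbb4 and Btc), beside 27.9%. For Btc this rests on 0 against 8 counts. Female tdTomato was at least 2-fold higher than male tdTomato for 1 of 6 (Btc), beside 21.6%, and at least 2-fold lower for 3 (Egfr, Erbb4 and Ereg), beside 20.6%. With 1 library on each side these differences have no replicate check. At 0 counts in male GFP were 3 of the 6 tested members (Egfr, Erbb2 and Ereg), where 23.4% of all tested genes were. Only Hbegf reached 10 counts in all 4 libraries, where 46.6% of all tested genes did.

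Hbegf and Ereg are known as genes that stimulated cells switch on quickly. They were set beside early response and heat shock genes, which also answer to tissue digestion. Of 13 such genes, 10 were higher in GFP in the female pair and lower in GFP in the male pair, by any amount. So were Hbegf and Ereg among the members and 26.8% of all tested genes. Of the 13, the number was 8 with DESeq2's size factors and 9 with library totals alone. At 2-fold or more, 1 of the 13 (Atf3) was higher in GFP in the female pair, beside 22.0% of all tested genes. In the male pair 4 were lower by as much, beside 50%. Atf3 alone passed 2-fold in both of these directions (log2 ratios of 1.04 and -1.13), beside 11.5% of all tested genes. The median log2 ratio of the 13 was 0.74 (female pair) and -0.63 (male pair). Hbegf, at 1.48 and -0.56, stood above all 13 in the female pair (-0.14 to 1.04) and within their range in the male pair (-2.65 to 0.79). Egr1, a transcription factor gene of this group, stood at 4390 CPM (female) and 2397 CPM (male) in GFP, whereas tdTomato had 2506 (female) and 3701 CPM (male). Egr1, Ier2, Ier3, Atf3 and Hspa1a were highest in female GFP and lowest in male GFP, as were Hbegf and Ereg. The other genes of the group did not share this order of libraries. Fos, Hspa1b and Zfp36 did not have opposite signs in the 2 pairs. Fos and Hspa1b were higher in GFP in each pair (log2 ratios of 0.74 and 0.23 for Fos, 0.61 and 0.79 for Hspa1b), and Zfp36 was lower in each (-0.14 and -1.68). The part of the response to digestion in the Hbegf and Ereg values was not tested.

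**Figure D4:**
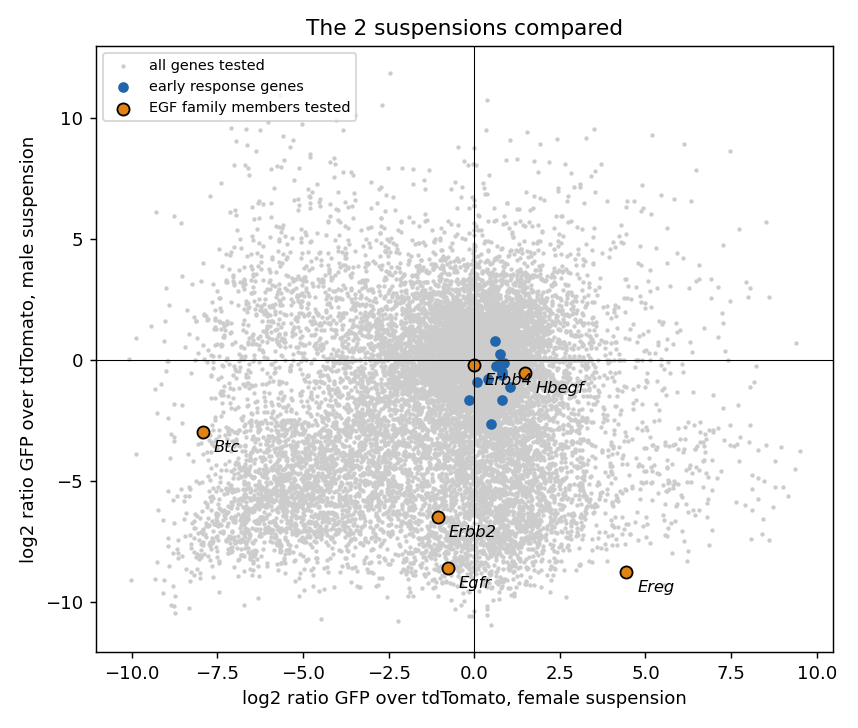
Log2 ratio of GFP over tdTomato in the female suspension (x axis) against the male suspension (y axis) for 15055 tested genes (grey), 13 early response genes (blue) and the 6 tested EGF family members (orange). Btc, Erbb2 and Egfr lie at the lower left, while Ereg (4.44 and -8.78) and Hbegf (1.48 and -0.56) lie at the lower right with 10 of the early response genes.

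Of the other family genes, only Nrg4 reached 10 counts in any library. Nrg4, a neuregulin that acts on ErbB4, had 146 and 2 counts in GFP against 2 and 1 in tdTomato, a ratio of 86.4 within the female pair (23.5 to 720.5). Egf and Nrg3 had at most 2 counts in any library. Erbb3 and Epgn were not analysed here. None of Nrg4, Egf and Nrg3 passed the filter.

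Genes of ligand release comprised proteases and the inactive rhomboids Rhbdf1 and Rhbdf2, which cut no ligand themselves but help ADAM17 to mature. Of 8 tested, 5 (Adam10, Adam15, Adam19, Rhbdf2 and Bace1) were lower in GFP by 2-fold or more in each suspension and 1 (Adam17) was higher. Their median log2 ratios were -2.11 (female pair) and -2.92 (male pair), and the share lower was 62.5%, beside 22.9% of all tested genes. Adam17, the main protease that releases TGF-alpha, HB-EGF and amphiregulin, measured 93.1 (female) and 46.2 CPM (male) in GFP, whereas tdTomato had 45.5 (female) and 9.42 CPM (male). The ratio was 2.04 within the female pair (1.86 to 2.25) and 4.90 within the male pair (4.03 to 6.01). Scaled by library totals alone, its female log2 ratio was 0.81 and under the 2-fold line. Adam10, which releases betacellulin, went the other way, at 18 (female) and 0 CPM (male) in GFP, whereas tdTomato had 48.3 (female) and 47.7 CPM (male). Adam9, a further metalloprotease, measured 135.8 (female) and 199.2 CPM (male) in GFP, whereas tdTomato had 86.7 (female) and 39.0 CPM (male).

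Genes that hold ErbB receptors in check went both ways, with median log2 ratios of 0.51 (female pair) and 1.35 (male pair), or 0.29 and 1.14 with library totals alone. Within the female pair, 5 of 11 were higher in GFP by 2-fold or more, beside 22.0% of all tested genes, and 3 were lower, beside 37.8%. With library totals alone 2 were higher. Within the male pair 7 of 11 were higher, beside 21.5%, and 4 were lower, beside 50%. Only Errfi1 and Lrig1 were higher in each pair, beside 5.17% of all tested genes, and only Cbl was lower in each, beside 22.9%. The other 3 higher in the female pair were far lower in the male pair, with log2 ratios of 1.10 and -5.20 for Lrig2, 2.06 and -4.68 for Cblb, and 1.06 and -4.19 for Ptpn1. Errfi1, whose protein binds and blocks the EGFR kinase, measured 407.0 (female) and 739 CPM (male) in GFP, whereas tdTomato had 190.1 (female) and 333 CPM (male). The ratio was 2.14 within the female pair (2.04 to 2.24) and 2.22 within the male pair (2.14 to 2.30). With library totals alone it was under 2-fold in both (log2 ratios of 0.88 and 0.93). Lrig1, a membrane protein that lowers ErbB receptor levels, measured 72.3 (female) and 83 CPM (male) in GFP, whereas tdTomato had 13.4 (female) and 23.9 CPM (male). Cbl, a ubiquitin ligase for EGFR, measured 0.158 (female) and 0.426 CPM (male) in GFP, whereas tdTomato had 24.2 (female) and 42.1 CPM (male). Socs5, a further gene of the group, had log2 ratios of 0.51 and 3.64.

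Downstream of the receptors, 21 relay genes were spread around 0. Of these, 3 (Shc1, Gab2 and Plcg1) were lower in GFP by 2-fold or more in each suspension and 1 (Sos2) was higher, with median log2 ratios of -0.18 and -0.16. These are 14.3% and 4.76% of the list, beside 22.9% and 5.17% of all tested genes. Shc1, an adaptor that docks on activated receptors, was at 0 in GFP of either sex, whereas tdTomato had 4.62 (female) and 21.1 CPM (male). Sos2, which loads Ras with GTP, measured 228.7 (female) and 322 CPM (male) in GFP, whereas tdTomato had 44.5 (female) and 49.8 CPM (male). Ptpn11, a phosphatase that carries the signal onward, measured 125 (female) and 442 CPM (male) in GFP, whereas tdTomato had 142 (female) and 170.1 CPM (male). Mapk3, a kinase at the end of this chain, measured 119.0 (female) and 288.2 CPM (male) in GFP, whereas tdTomato had 85.7 (female) and 62.8 CPM (male). The lists were chosen with earlier results of these data known, and none of their counts was tested.

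**Figure D5:**
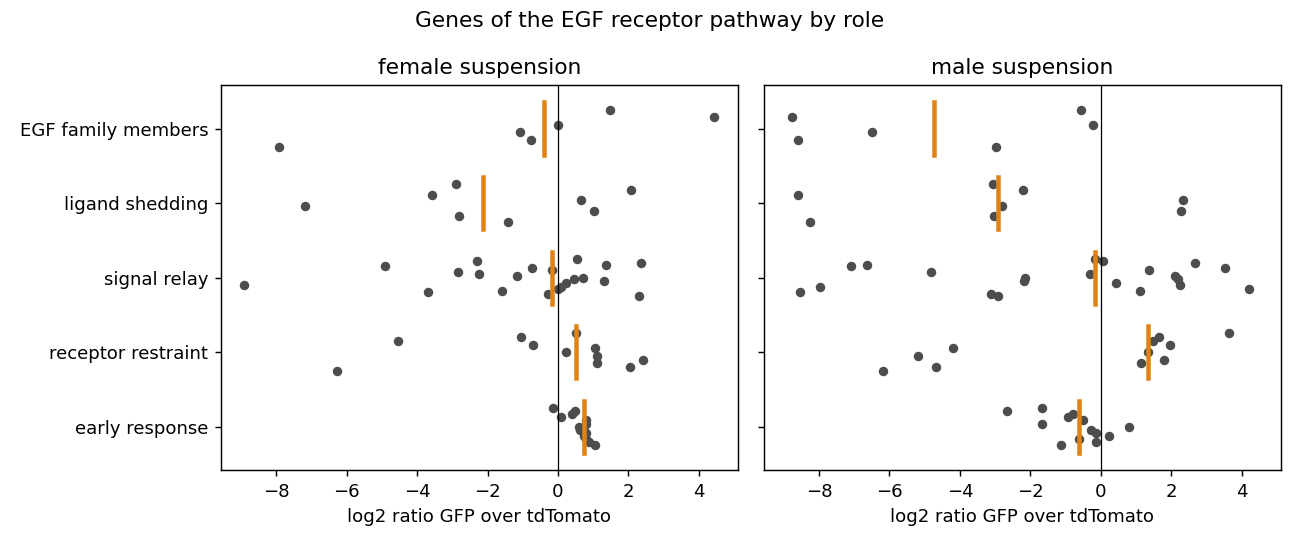
Log2 ratio of GFP over tdTomato in the female suspension (left) and the male suspension (right) for tested genes of 5 lists, 1 point per gene, with the list median as an orange bar. The medians of the receptor restraint genes lie above 0 in both panels (0.51 and 1.35), and those of the early response genes on opposite sides (0.74 and -0.63).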

How the data were processed

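The data were a table of expected counts per gene for 4 libraries, which the authors deposited as estimated counts with up to 2 decimals and no scaling between libraries. Per the labels' protocols, polyadenylated RNA was amplified with the SMART-Seq v4 kit, which does not mark strand. The tools fastp, HISAT2 and StringTie and the build GRCm39 are named, without versions, per the submitters' processing notes. The counting program was not given in the sources used here. Counts were rounded to whole numbers. Symbols (76.4% of identifiers) and exon lengths came from GENCODE M21 on GRCm38, and promoters from RefSeq.

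Levels are CPM after TMM scaling. Ratios are log2 with a prior count of 2, and folds of single genes have none and carry an exact 95% binomial interval. Genes entered the edgeR 4.0.16 quasi-likelihood test (R 4.3.3) when filterByExpr kept them at 10 counts. Both colours of a sex came from 1 suspension per the labels, so suspension was the block, with 1 residual degree of freedom. Deviations of a suspension's libraries from their colour means had a Pearson's r of 0.055 across genes. The alternatives were limma-voom (limma 3.58.1) and DESeq2 (version 1.42.0), and the edgeR script was tested on simulated data. p-values here measure the spread between 2 suspensions that differ in sex.

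The members and the 14 gene lists were chosen with earlier results of these data known. Of 113 list genes, 11 without a row were not analysed here. All members and other family genes were named. Of each further list the naming rule took the 3 highest by mean CPM and up to 4 in each direction at least 2-fold apart the same way in both pairs where the higher colour reached 10 CPM in each of its libraries, and of the marker lists only some of these are given. Adam19, Rhbdf2, Shc1, Zfp36, Lrig2, Cblb, Ptpn1, Rhbdf1, Cd3e and Sox10 were named after their values were seen. So were Atf3, Ier2, Ier3, Hspa1a, Pmel, Epcam, Cdh1 and Ptprc.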

Additional observations from a re-analysis of the deposited data

Results flagged for a closer look

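Hbegf and Ereg drew attention because the contrast of GFP with tdTomato went in opposite directions in the 2 suspensions. The log2 ratio of Hbegf was 1.48 in the female suspension and -0.56 in the male suspension. That of Ereg was 4.44 and -8.78, the male value resting on 0 counts in GFP and on the prior count. With 4 libraries for 4 combinations of sex and colour, the difference between the suspensions was not tested.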

How the results depend on the processing

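The edgeR count of 0 called genes was also 0 with DESeq2's size factors, with library totals and without the filter. It was 0 too at a minimum of 50 counts and without suspension as a replicate block. The main fit had 1 residual degree of freedom and a common dispersion of 1.47, so a count of 0 does not show that differences are absent. Fits with a library left out dropped the block and had 1 library of a colour, so their calls are not set beside it. DESeq2 in place of edgeR called 1157 genes, 49 higher in GFP and 1108 lower, and the cause of the difference was not tested. The members lower in GFP by 2-fold or more in both pairs numbered 2, and 1 with DESeq2's size factors (Btc, without Erbb2) and 1 at 4-fold (Btc). They numbered 2 to 4 in the pair that is left when a library is dropped, 4 without female GFP or female tdTomato and 2 without male GFP or male tdTomato. Members at least 2-fold higher in both pairs numbered 0, and 0 to 2 in the same way, 2 without male GFP or male tdTomato. Of 30 mean ratios of members under other scalings or a prior count of 0.5, 1 turned its sign (Erbb4). Of 40 with a library left out 4 did (Erbb4, Ereg and Hbegf). These 40 were differences between the means of the remaining libraries of each colour, so they mix the suspensions and are not paired. For Erbb4, at 0 counts in both female libraries, they turned to 3.26 without female GFP and 3.37 without male tdTomato. The Erbb4 ratios within the female and male pairs were 0 and -0.22. Against TMM, DESeq2's size factors moved the median log2 ratio of all genes by 0.12 and 0.21 in the female and male pair, and library totals by -0.21 and -0.2. As an alternative added after the data were seen, leaving out male GFP brought the 18 zeros among 40 member values to 11 among 30. Counts under 10, as for Areg, Nrg1 and Btc in GFP, limit what these libraries can show. Female GFP and female tdTomato had near-equal depth, yet 12.8% and 1.5% of tested genes were at 0.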
